A study of Mus musculus with 768 samples.

Results

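Among the single Schwann cells (SCs) of the adult mouse sciatic nerve there were mature non-myelinating cells, or Remak cells, that carried almost no Aldh1a1, the gene of a retinaldehyde dehydrogenase that makes retinoic acid. They are called Aldh1a1-negative cells here and numbered 129 of the 768 cells in the data, 37 of 384 on plate 1 and 92 of 384 on plate 2. The cells were chosen by the levels of 17 genes. A cell first needed 1500 or more detected genes and 20000 or more reads, which 623 cells had. Levels were CPM, the counts of a cell scaled to a fixed total per cell, on the scale log2(CPM + 1). The mean level of the non-myelinating genes Scn7a, Ncam1, Ptn, Lgals3, Ntrk3 and Rab3b had to exceed that of the myelinating genes Ncmap, Prx, Pllp, Cldn19, Fam178b and Kcnk1. At least 2 of the 4 genes C4b, F3, Entpd2 and Sparcl1, called mature genes here, had to reach 100 CPM, and Aldh1a1 had to stay below 100 CPM.

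The study profiled SCs of the sciatic nerve at postnatal day 60 (P60) by Smart-Seq2, in which whole cDNAs are sequenced without molecular identifiers. The mice were P0Cre(-/+):ReYFP(Tg/+):βAct-DsRed(Tg/+) on a C57bl/6J background, so that every cell of the body could carry the red reporter and cells with Cre also carried the yellow one. Cre was driven by a promoter of the SC lineage, and all cells here were sorted for yellow fluorescence, so SCs that had not switched it on were not sampled. Each plate held cells of other animals, males and females pooled, without a label that ties a cell to an animal, and n = 2 plates throughout. All groups compared below come from the same 2 plates and the same genotype, age and sort.

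Remak cells hold many thin axons in separate troughs of their membrane and form no myelin, while myelinating SCs (mSCs) each wrap a length of 1 large axon. Both arise from immature SCs, and Remak cells keep several genes of that earlier state, among them adhesion molecules and the p75 neurotrophin receptor. Retinoic acid is made in the last step by Aldh1a enzymes and acts on nuclear receptors. The other cells served for comparison. The 244 cells in which the myelinating score was higher are called mSC-like. Cells in which the non-myelinating score was higher, nm(R)SC-like in the terms of the study, comprised the 129 Aldh1a1-negative cells, 196 Aldh1a1-positive cells with 2 or more mature genes and Aldh1a1 at 100 CPM or more, and 54 cells with under 2 mature genes.

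The plates differed in depth and in signal between wells, and these values bear on every result. The Aldh1a1-negative cells of plate 1 had a median of 252735 reads and 3931 detected genes, and those of plate 2 had 392865 reads and 2160 genes (2159.5). Thinned to 20000 reads per cell, the medians were 2423 and 1114 genes. The thinned medians were 2257 and 1330 genes in Aldh1a1-positive cells and 2366 and 1418 in mSC-like cells. In cells with under 2 mature genes they were 2523 and 1131. In plate 2 the Aldh1a1-negative cells thus had the lowest of the 4 thinned medians. Median reads in plate 2 were 492104 in Aldh1a1-positive cells, 324368 in cells with under 2 mature genes and 507929 in mSC-like cells. Whether this bears on the missing Aldh1a1 reads was not tested. In plate 1 the median score of the 6 myelinating genes in Aldh1a1-negative cells was 3.87 on the log2(CPM + 1) scale, and in plate 2 it was 0.668. Aldh1a1 itself summed to 27.8 CPM in mSC-like cells of plate 1 and to 0.140 CPM in those of plate 2. The origin of this low signal in plate 1 was not tested. No 2 of the 768 cells had the same counts.

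**Figure D1:**
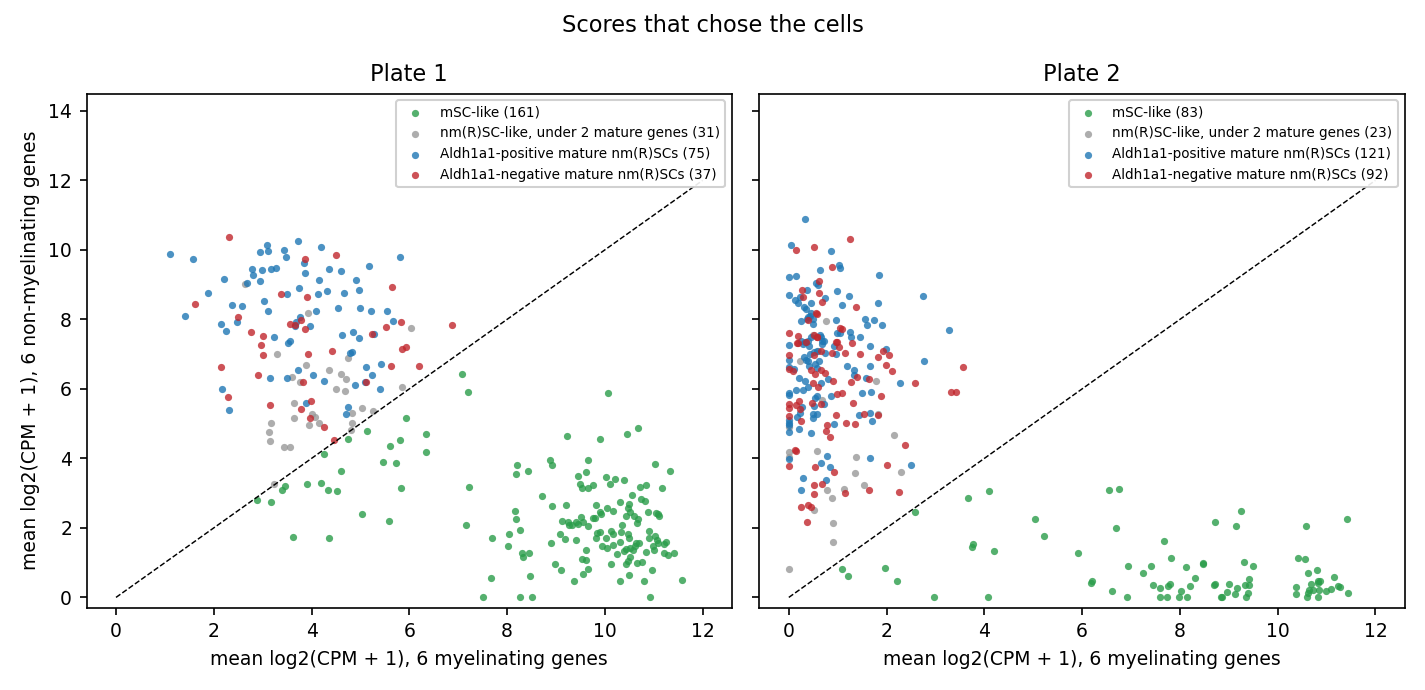
Each point is 1 cell, with the mean log2(CPM + 1) of the 6 myelinating genes on the horizontal axis and of the 6 non-myelinating genes on the vertical axis, for plate 1 (left) and plate 2 (right). The dashed line marks equal scores, and colours mark the 4 classes with their numbers of cells. The Aldh1a1-negative cells overlap the Aldh1a1-positive ones. Their median non-myelinating score was lower, 7.25 against 8.25 in plate 1 and 6.32 against 7.03 in plate 2. The median difference between the scores was smaller as well, 3.29 against 4.27 and 5.28 against 6.23. The Aldh1a1-negative cells lie farther to the right in plate 1 (median 3.87) than in plate 2 (median 0.668).

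The values that chose the cells are given as a description and were not tested. Aldh1a1 in the summed reads of Aldh1a1-negative cells was 8.38 CPM in plate 1 and 0.454 CPM in plate 2, against 2505 and 2278 CPM in Aldh1a1-positive cells. In plate 2, 82 of the 92 Aldh1a1-negative cells had no Aldh1a1 read, while in plate 1 only 8 of 37 had none. Just inside the limit, the highest level in an Aldh1a1-negative cell was 64.6 CPM in plate 1 and 51.1 CPM in plate 2. Just outside it, the lowest level in an Aldh1a1-positive cell was 112 CPM in plate 1 and 123 CPM in plate 2, and 4 such cells of each plate lay below 200 CPM. The mature genes were C4b, a complement component, F3, the tissue factor that starts clotting, Entpd2, an enzyme that cleaves extracellular ATP, and Sparcl1, a matrix protein. C4b stood at 319 and 1436 CPM in plates 1 and 2, F3 at 285 and 1699 CPM, Entpd2 at 1226 and 2158 CPM and Sparcl1 at 1112 and 1744 CPM. All 4 were lower in plate 1.

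The Aldh1a1-negative cells met the mature rule by a narrower margin than the Aldh1a1-positive ones. Exactly 2 mature genes reached 100 CPM in 51.4% of them in plate 1 and 37.0% in plate 2, against 9 of 75 and 12 of 121 Aldh1a1-positive cells. All 4 genes reached it in 16.2% and 29.3%, against 50.7% and 56.2%. Sparcl1 did so in 37 of 37 and 81 of 92 Aldh1a1-negative cells, and C4b in 17 and 55. F3 did so in 10 (27.0%) and 53 (57.6%). Among nm(R)SC-like cells below the rule, 23 of plate 1 and 17 of plate 2 had 1 mature gene at 100 CPM.

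The label was held against markers that the rule did not use. Rarres2 and Slc43a3 belong to the label itself and were chosen with earlier results of these data known. Their levels are thus a description and no separate check of the label. Rarres2, which encodes the attractant protein chemerin, summed to 2309 and 3586 CPM in Aldh1a1-negative cells of plates 1 and 2, and Slc43a3, a transporter of nucleobases, to 891 and 2618 CPM. Both lay above the mSC-like cells, with 272 and 216 CPM of Rarres2 and 64.2 and 78.9 CPM of Slc43a3. The exons of Rarres2 overlap those of Lrrc61 on the other strand, and the strand setting of the counting is not known. After thinning, 2 or more reads of Rarres2 were found in 37 of 37 cells of plate 1 and 88 of 92 of plate 2 (95.7%, exact 95% interval 89.2% to 98.8%). In mSC-like cells, taken as the background, the shares were 51.6% and 30.1%. Genes of all SCs were present, with Sox10 at 457 and 287 CPM, S100b at 254 and 323 CPM and Erbb3 at 220 and 175 CPM. Of 12 classic markers of non-myelinating cells, 9 outside the rule were tested, and all 9 lay above mSC-like cells in both plates. Their median log2 ratio was 4.84, against -0.07 over all genes tested. In the edgeR fit below, 3 of the 9 were called higher (Emp1, Chl1 and L1cam), against 0.515% of all genes tested. A second tool, DESeq2, called 7 of the 9 higher, against 491 of all 13409 genes. These markers too were chosen with earlier results of these data known, so they are no separate check. Among the 12, Gfap was low at 49.4 and 54.9 CPM, with 0.193 and 0.0175 CPM in mSC-like cells. Gap43 was at 0 in plate 1 and 0.0197 CPM in plate 2.

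Markers of other cells of the nerve were near 0 for most of each list. Of the 10 fibroblast markers, 6 were under 1 CPM in Aldh1a1-negative cells of both plates, among them Pdgfra, Dpt and Clec3b with no read and Pi16 at 0 and 0.848 CPM. The summed list stood at 4251 and 1801 CPM, against 1992 and 1027 CPM in mSC-like cells, and came mostly from collagen genes such as Col3a1 (1858 and 637 CPM against 298 and 244 CPM). The part of this list in the results was not tested. The 8 endothelial markers summed to 26.2 and 0.316 CPM, with 5 of them under 1 CPM in both plates and Cdh5 at 0. The 9 pericyte and smooth muscle markers summed to 224 and 87.7 CPM, nearly all of it Cspg4 (223 and 87.4 CPM), and Rgs5 was at 0. The 7 perineurial markers summed to 314 and 302 CPM, of which Itgb4 made 311 and 252 CPM, and 4 were under 1 CPM. The 12 immune markers summed to 11.7 and 51.1 CPM, with Ptprc at 0. In mSC-like cells the sums of the last 4 lists were 101.3 and 51.0, 136 and 103, 197 and 301, and 9.59 and 19.5 CPM.

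Aldh1a1-negative cells made up 12.2% of the kept cells of plate 1 (37 of 304, exact 95% interval 8.72% to 16.4%) and 28.8% of plate 2 (92 of 319, 23.9% to 34.1%), a mean share of 20.5% ± 11.8 (SD, n = 2). Both intervals reflect counting error alone. Of the cells that met the mature rule they were 33.0% in plate 1 (24.4% to 42.6%) and 43.2% in plate 2 (36.4% to 50.1%), where the intervals of the plates overlapped. With 2500 or more detected genes required, which 285 cells of plate 1 and 109 of plate 2 had, 34 and 13 cells met the rule (11.9% of each plate). Aldh1a1-positive cells numbered 71 and 48 under that limit, against 75 and 121 without it. With members restricted to cells without an Aldh1a1 read, the shares were 2.63% and 25.7%, and with 3 mature genes required they were 5.92% and 18.2%. With 2 plates and 1 condition no test was made.

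To find what set these cells apart from mSC-like cells within a plate, reads were summed per plate and class. The 8 sums were fitted with edgeR's quasi-likelihood test with the plate as a block, and the 17 genes of the rule were left out of the test. Of 13409 genes tested, 69 were higher in Aldh1a1-negative cells (0.515% of the genes tested) and 33 were lower (0.246%) after Benjamini-Hochberg adjustment over all genes. For each of the 102 the plates gave ratios of equal sign. The fit on these same plates favours such genes, so the equal signs are no separate check. The genes that rose had a median log2 ratio of 3.35 and those that fell of -3.53, while the median over all genes tested was -0.07. The genes tested were read in the same wells as the genes of the rule, so they are separate measures but not separate cells, and sums weigh cells by their reads. DESeq2 called 491 genes higher and 495 lower, among them all 102. In the edgeR fit, 1183 of the 13409 genes had an unadjusted p under 0.05. Genes are said to be called, to rise or to fall by the edgeR fit, and calls by DESeq2 are named as such. Without the plate as a block 10 genes were called in each direction, and with a minimum of 2500 genes per cell 24 and 14.

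The 10 genes that rose with the largest ratios in both plates included a lipid carrier and 2 lipid transporters. Apoe, the main lipid carrier of nervous tissue (chromosome 7, 19696109 to 19699188, GRCm38), stood at 7613 and 27096 CPM in Aldh1a1-negative cells of plates 1 and 2 and at 405 and 312 CPM in mSC-like cells, with a log2 ratio of 5.06 ± 0.640 (SE, edgeR adjusted p = 0.00616). Both plate sums of the Aldh1a1-negative cells lay above both sums of the mSC-like cells. Every Aldh1a1-negative cell had Apoe reads. Abca8a, a transporter of the lipid-moving ABC family (chromosome 11, 110025634 to 110095978), stood at 1568 and 865 CPM against 80.3 and 37.7 CPM, with a log2 ratio of 4.35 ± 0.331 (SE, edgeR adjusted p = 0.000372). Its neighbour Abca8b stood at 336 and 420 CPM against 14.2 and 11.9 CPM, with a log2 ratio of 4.79 ± 0.575. The counts of the pair can share reads, as the genes are close copies. Plac9a, a small secreted protein, stood at 186 and 167 CPM against 1.10 and 0.0350 CPM. It has near copies in Plac9b and Gm9780, whose counts across cells rose and fell with it (Spearman's rho of 0.809 and 0.814 over all cells), so its own level is uncertain.

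The other 6 of the 10 genes that rose most were Gpnmb, Pdlim4, L1cam, Emp1, S1pr3 and Tm4sf1. S1pr3, a receptor for the lipid signal sphingosine 1-phosphate, stood at 282 and 497 CPM in Aldh1a1-negative and 12.3 and 7.21 CPM in mSC-like cells (edgeR adjusted p = 0.00220). Emp1, a membrane protein related to Pmp22, stood at 226 and 369 CPM against 7.72 and 2.78 CPM (edgeR adjusted p = 0.00493). Pdlim4, an adaptor of the actin skeleton, stood at 421 and 482 CPM against 15.9 and 22.4 CPM (edgeR adjusted p = 0.00163). S1pr3, Emp1 and Pdlim4 kept their call without the block. L1cam, an adhesion molecule of axons and Remak cells, stood at 277 and 276 CPM against 10.4 and 0.315 CPM. Exons of Arhgap4 lie over those of L1cam on the same strand. Tm4sf1, a membrane protein that binds others, stood at 219 and 139 CPM against 8.35 and 0.438 CPM. Gpnmb, a membrane glycoprotein of lysosomes, stood at 186 and 286 CPM against 1.76 and 0 CPM. The edgeR adjusted p of these 3 lay between 0.0211 and 0.0442, and none of the 3 was called without the block, nor was Apoe.

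Among the genes that fell, those with the lowest ratios were at or near 0 in the Aldh1a1-negative cells. Slc36a2, which moves small amino acids with protons (chromosome 11, 55158470 to 55185077), stood at 7.28 and 0.296 CPM in Aldh1a1-negative and 1410 and 2278 CPM in mSC-like cells (edgeR adjusted p = 0.00800). After thinning, 2 or more reads of Slc36a2 were found in 0 of 37 and 0 of 92 Aldh1a1-negative cells, which on plate 2 allows a share of up to 3.26% (3 of 92 cells), and in 124 of 161 and 55 of 83 mSC-like cells. Mfap5, a protein of elastic microfibrils, stood at 8.38 and 0.0592 CPM against 1484 and 742 CPM. Emid1, a secreted protein with a collagen-like part, stood at 5.90 and 0.375 CPM against 605 and 1045 CPM. Fa2h, which makes the 2-hydroxy fatty acids of myelin lipids, stood at 21.2 and 4.71 CPM against 720 and 786 CPM. Because fitted ratios of genes near 0 depend on the prior count, ratios within a plate with 10 CPM added to each level are given for them. They were -6.36 and -7.80 on the log2 scale for Slc36a2, -6.34 and -6.22 for Mfap5, -5.27 and -6.67 for Emid1 and -4.55 and -5.76 for Fa2h. The other 6 of these 10 genes were the small GTPase Mras, the metallothionein Mt3, the septin Sept3, the regulator Atxn1, the caveolar protein Cav1 and the sterol exporter Abcg1, at 0 to 5.07 CPM in Aldh1a1-negative cells and 152 to 804 CPM in mSC-like cells. The exons of Atxn1 overlap those of Gmpr on the other strand.

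**Figure D2:**
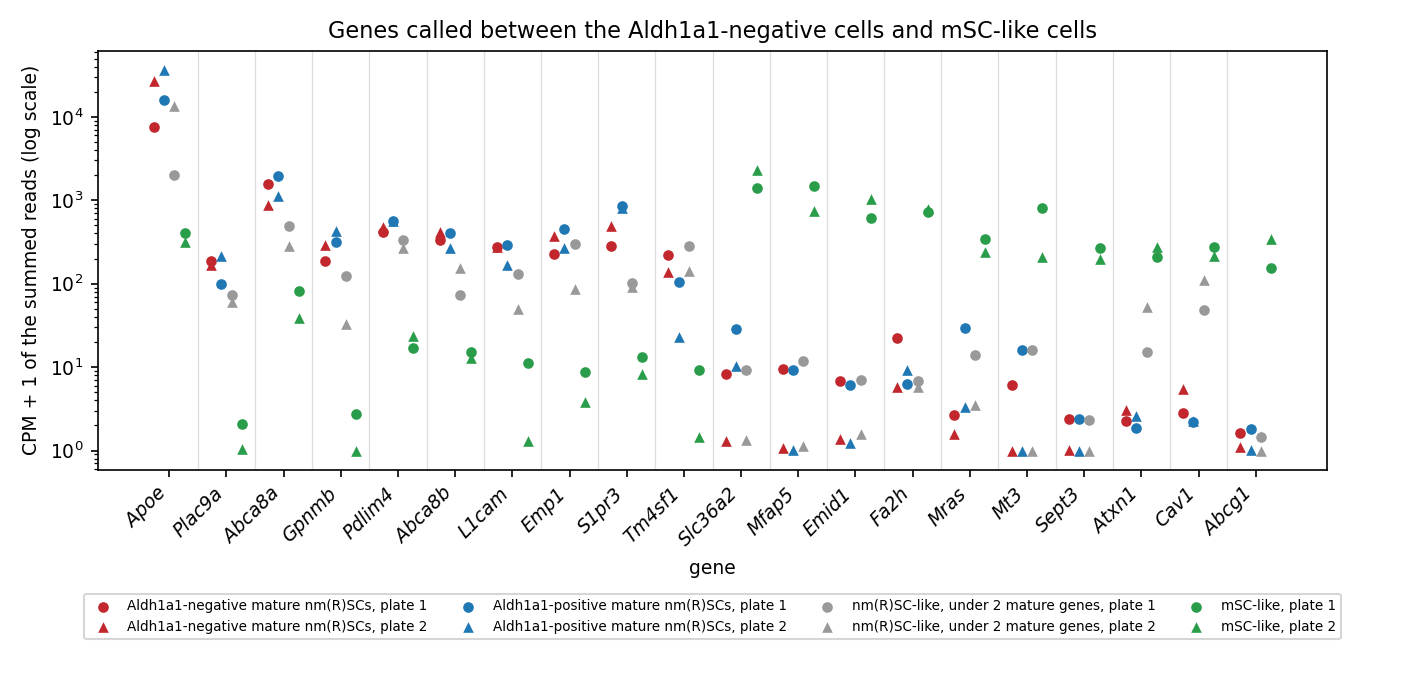
The 20 genes called with the largest ratios in both plates, by symbol on the horizontal axis, with CPM + 1 of the summed reads on a logarithmic vertical axis; circles are plate 1, triangles plate 2 and colours the 4 classes. The first 10 genes are higher in Aldh1a1-negative than in mSC-like cells in both plates and the last 10 lower, and for most of them the Aldh1a1-negative and Aldh1a1-positive cells lie side by side.

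**Figure D3:**
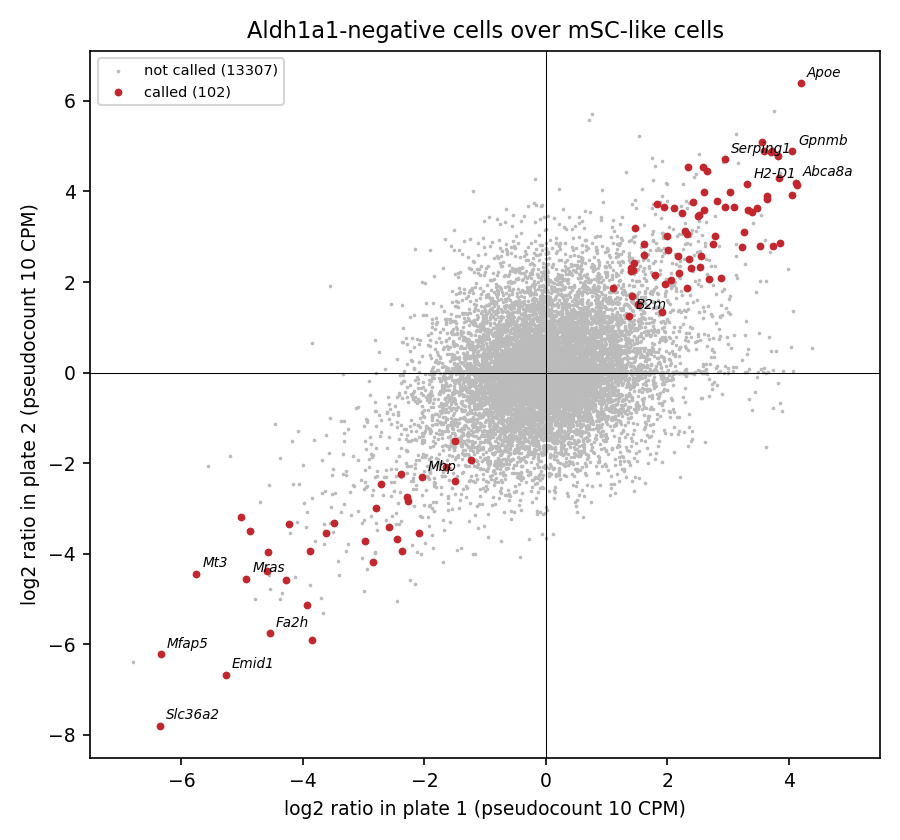
Each point is 1 of the 13409 genes tested, with the log2 ratio of Aldh1a1-negative over mSC-like cells in plate 1 on the horizontal and in plate 2 on the vertical axis (10 CPM added to each level). The 102 genes called lie in the upper right and lower left quadrants, where the ratios of the plates are of equal sign. The calls were made on these same plates, so the equal signs are no separate check.

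Gene groups were then read in the same fit. Of the 20 tested genes of MHC class I presentation, by which cells show peptides to cytotoxic T cells, 4 rose and none fell, against 0.515% of all genes tested that rose, with a median log2 ratio of 2.09. H2-K1 and H2-D1, the class I heavy chains, stood at 1158 and 1234 CPM and at 2660 and 3695 CPM in Aldh1a1-negative cells, against 172 and 286 CPM and 258 and 196 CPM in mSC-like cells. B2m, their light chain, stood at 10546 and 4341 CPM against 4052 and 1810 CPM, and Psmb8, a subunit of the immunoproteasome, at 383 and 481 CPM against 27.4 and 32.1 CPM. Their log2 ratios were 2.37 ± 0.317 for H2-K1, 3.66 ± 0.429 for H2-D1, 1.27 ± 0.235 for B2m and 3.80 ± 0.415 for Psmb8 (SE, edgeR adjusted p of 0.00329 to 0.0376). None of the 4 was called without the block. Of the 7 tested class II genes 1 fell, against 0.246% of all genes tested. It was H2-DMb1, which helps to load peptides, with 1.57 and 18.03 CPM against 329 and 304 CPM. The median of that list was 2.90, but 0 of the 7 were higher in both plates and 3 were lower in both. Genes near 0 entered this median, such as Cd74 at 0 and 7.75 CPM against 0.0276 and 0 CPM, which DESeq2 called higher. The 10 listed genes summed to 3.22 and 98.3 CPM against 636 and 654 CPM in mSC-like cells. H2-DMa, the partner chain of H2-DMb1, stood at 1.29 and 0 CPM against 301 and 310 CPM. It was called by DESeq2 (adjusted p = 0.000683) but not by edgeR (adjusted p = 0.0866).

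Of 14 tested genes of neural cell adhesion, 5 rose and none fell, against 0.515% of all genes that rose, with a median log2 ratio of 2.64. Besides L1cam these were Chl1, its close relative, Cdh19, a cadherin of SCs, Cadm1 and Nlgn3. Chl1 stood at 642 and 427 CPM against 45.4 and 2.85 CPM, Cdh19 at 722.2 and 665 CPM against 196 and 41.3 CPM, and Cadm1 at 748 and 1987 CPM against 172 and 475 CPM. Nlgn3, a neuroligin, stood at 96.2 and 172 CPM against 8.49 and 6.23 CPM. Of the 8 tested neurotrophin and GDNF receptors edgeR called none, with 6 at an unadjusted p under 0.05 and a median of 2.83, while DESeq2 called 5 higher and 1 lower. Over all 13409 genes tested, 1183 had an unadjusted p under 0.05 by edgeR, and DESeq2 called 491 higher and 495 lower. Ngfr, the p75 receptor, stood at 69.6 and 84.8 CPM against 10.997 and 2.05 CPM (edgeR adjusted p = 0.0832), and Gfra3 at 65.4 and 13.9 CPM against 0.276 and 0.140 CPM (edgeR adjusted p = 0.141). Without its top cell, Gfra3 went from 1.24 to 0.25 on the log2 scale in plate 2.

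For the lists that follow, the shares over all genes tested were 0.515% that rose and 0.246% that fell. Of 16 tested complement genes and regulators outside the rule, 1 rose and none fell, with a median log2 ratio of 2.53. It was Serping1, the inhibitor of the C1 proteases, with 468 and 1788 CPM against 51.8 and 58.3 CPM and a log2 ratio of 4.18 ± 0.676 (SE, edgeR adjusted p = 0.0198). The C1 proteases themselves, C1ra (64.6 and 232 CPM against 3.50 and 1.65 CPM) and C1s1 (26.4 and 226 CPM against 0.469 and 0.0175 CPM), missed the limit with edgeR adjusted p of 0.0611 and 0.0827, and DESeq2 called both. Without its top cell, C1s1 went from 1.80 to 0.73 on the log2 scale in plate 1. Of 18 genes of lipoproteins and lipid transport, Apoe, Abca8a and Abca8b rose and Abcg1 fell, with a median of -0.13. Of 12 sodium and potassium channel genes, Kcna6 rose (175 and 127 CPM against 21.6 and 13.1 CPM), with a median of 0.87. Of 17 genes listed under retinoid metabolism and its receptors Rarres2 rose, with a median of 0.67. Rarres2 encodes chemerin and is a label marker chosen with earlier results of these data known. Its call is thus no separate result for the list. No other gene of the list was called by edgeR, while DESeq2 called 2 higher (Rxrg and Rarres2) and 1 lower (Aldh1a7). The nuclear receptor Rxrg stood at 131 and 531 CPM against 32.1 and 10.2 CPM (edgeR adjusted p = 0.111).

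Among genes of compact myelin, Pmp22 and Mbp fell. Pmp22 stood at 4242 and 4758 CPM in Aldh1a1-negative cells against 52199 and 55308 CPM, with a log2 ratio of -3.63 ± 0.204 (SE, edgeR adjusted p = 5.51e-05). Mbp, which holds the layers of the myelin sheath together, stood at 2770 and 5332 CPM against 11468 and 26352 CPM, with a log2 ratio of -2.23 ± 0.251 (SE, edgeR adjusted p = 0.00363). Pmp22 was lower but still read in nearly every cell, with 2 or more thinned reads of Pmp22 in 37 of 37 and 88 of 92 Aldh1a1-negative cells. Of 15 genes of non-compact myelin edgeR called none (9 at an unadjusted p under 0.05, median -1.29) and DESeq2 called 5 lower, Cnp, Gjb1, Drp2, Cdh1 and Gldn. Of 19 cholesterol synthesis genes edgeR called none (11 at an unadjusted p under 0.05, median -1.86) and DESeq2 called 7 lower. Of the 19, 16 had negative ratios in both plates, and Fdps, whose exons overlap those of Gm43738, stood at 184 and 479 CPM against 792 and 1393 CPM (edgeR adjusted p = 0.0687). Of 28 matrix genes Matn2, which overlaps a gene on the other strand, rose (1160 and 1419 CPM against 175 and 55.7 CPM) and Mfap5 fell, with a median of 0.92. Of 12 genes of repair SCs Cd44 rose (473 and 306 CPM against 55.1 and 64.7 CPM), and of 21 genes of glycolysis Ldhb fell (381 and 620 CPM against 1206 and 2662 CPM). Over all 13409 genes tested, edgeR called 0.515% higher and 0.246% lower, and DESeq2 called 491 genes higher and 495 lower. An unadjusted p under 0.05 was found for 1183 of the 13409. In 7 further lists edgeR called no gene. Of 20 trophic factors (median -1.08), 6 had an unadjusted p under 0.05, and DESeq2 called 2 higher and 3 lower. Of 28 semaphorins, ephrins and slits (-0.33), 10 did, and DESeq2 called 4 higher and 3 lower. Of 26 glial transcription factors (0.24), 5 did, and DESeq2 called 1 higher and 2 lower. Of 21 laminins and receptors (0.42), 5 did, and DESeq2 called 2 higher and 1 lower. Of 15 purine signalling genes (-0.62), 3 did, and DESeq2 called 3 higher and 2 lower. Of 12 genes of the neuregulin and Lgi4 axis (0.54), 1 did, and DESeq2 called 0. Of 19 dissociation response genes (0.02), 6 did, and DESeq2 called 1, Btg2, which was lower.

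The next question was whether the Aldh1a1-negative cells differed from their Aldh1a1-positive neighbours by more than Aldh1a1. In the same fit no gene was called in either direction (0% of 13409 genes), with 365 genes at an unadjusted p under 0.05 and a median log2 ratio of -0.05, while DESeq2 called 66 genes higher and 104 lower. A count of 0 from 2 plates does not show that the classes are alike. Rarres2 (2309 and 3586 CPM against 4540 and 4149 CPM) and Slc43a3 (891 and 2618 CPM against 1262 and 2978 CPM) were called by neither tool, with log2 ratios of -0.59 ± 0.330 and -0.32 ± 0.350 (SE). Apoe stood at 7613 and 27096 CPM against 16018 and 36618 CPM, a log2 ratio of -0.73 ± 0.537 (SE, edgeR adjusted p = 1).

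As a description, 215 genes (1.60% of those tested) had ratios of 2 or more in both plates with the Aldh1a1-negative cells higher, and 225 (1.68%) with them lower. The genes named from these were chosen after their values were seen, as the 5 in each direction with the smallest unadjusted p at 50 CPM or more in the higher class of both plates. Higher in Aldh1a1-negative cells were Serpine2, Plekhf1, Postn, Phgdh and Bin3. Serpine2, an inhibitor of serine proteases that glia secrete, stood at 577 and 380 CPM against 64.5 and 97.0 CPM, with a log2 ratio of 2.64 ± 0.407 (SE, edgeR adjusted p = 0.784, DESeq2 adjusted p = 0.000236). After thinning, 2 or more reads of Serpine2 were found in 35.1% and 21.7% of Aldh1a1-negative cells, 25.3% and 5.79% of Aldh1a1-positive cells and 75.8% and 59.0% of mSC-like cells. Its level in the Aldh1a1-negative cells thus lay between those of the Aldh1a1-positive and the mSC-like cells in both plates. Postn, a matrix protein, stood at 439 and 119 CPM against 38.2 and 1.86 CPM, and was found in 40.5% and 14.1% of Aldh1a1-negative against 10.7% and 0 of 121 Aldh1a1-positive cells. Phgdh, the first enzyme of serine synthesis, stood at 362 and 484 CPM against 102 and 183 CPM. Plekhf1, which binds endosomal lipids, stood at 150 and 128 CPM against 17.98 and 17.4 CPM, but 1 cell held 73.6% of its reads in Aldh1a1-negative cells of plate 2. In cells with under 2 mature genes Serpine2 stood at 958 and 1837 CPM and Phgdh at 372 and 1016 CPM. Postn stood at 387 and 230 CPM there and Plekhf1 at 56.8 and 95.4 CPM. Serpine2 and Phgdh were thus higher there than in Aldh1a1-negative cells in both plates. Plekhf1 was lower there, and Postn was higher in plate 2 only. Bin3 was at 210 and 66.0 CPM in Aldh1a1-negative and 106 and 253 CPM in those cells.

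In the other direction, the 5 genes were Osbpl1a, Gpn1, Gstt1, Cmtm7 and Slc25a1. Gstt1, a glutathione transferase, stood at 0.0921 and 0.651 CPM in Aldh1a1-negative and 50.5 and 89.0 CPM in Aldh1a1-positive cells, and 2 or more thinned reads of it were found in 0 of 37 and 1 of 92 Aldh1a1-negative against 8 of 75 and 16 of 121 Aldh1a1-positive cells. Gpn1, a GTPase, stood at 1.75 and 0.868 CPM against 77.5 and 64.5 CPM. Osbpl1a, a sterol-binding protein of endosomes, stood at 57.0 and 21.7 CPM against 177 and 220 CPM, and 1 cell held 94.4% of its reads in Aldh1a1-negative cells of plate 2. Each of these genes was read in a minority of the cells of either class.

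Of the gene groups, 4 of 16 tested complement genes (C1rl, C2, C3 and Clu) were at least 2-fold lower in both plates, against 1.68% of all genes. C3, the central complement protein, stood at 1.93 and 123 CPM in Aldh1a1-negative and 573 and 596 CPM in Aldh1a1-positive cells (edgeR unadjusted p = 0.0435, adjusted p = 1), and Clu, a chaperone that also restrains complement, at 9.03 and 479 CPM against 556 and 1089 CPM. After thinning, 2 or more reads of Clu were found in 5.41% and 17.4% of Aldh1a1-negative and in 40.0% and 48.8% of Aldh1a1-positive cells, while the difference over plates was not called by either tool (edgeR adjusted p = 1, DESeq2 adjusted p = 0.980). In plate 1, 1 cell held 54.4% of the Clu reads of Aldh1a1-positive cells. The C1 inhibitor Serping1 stood at 468 and 1788 CPM against 1274 and 2818 CPM. Of 17 retinoid genes, Crabp1, which binds retinoic acid in the cell, stood at 72.9 and 0.0789 CPM against 221 and 38.3 CPM, and Aldh1a7 at 0.276 and 0 CPM against 33.3 and 59.1 CPM. Aldh1a7 is a close relative of Aldh1a1 on the same chromosome (chromosome 19, 20692953 to 20727562), so the counting may mix the reads of the pair. On the other side, the endothelin receptor Ednrb stood at 493 and 379 CPM against 166 and 146 CPM, and Egr2, a transcription factor of myelination, at 108 and 91.6 CPM against 45.5 and 4.37 CPM. Both were higher still in cells with under 2 mature genes, Ednrb at 937 and 573 CPM and Egr2 at 327 and 166 CPM. None of the 16 complement and 17 retinoid genes, nor Ednrb or Egr2, was called by edgeR, with 2 and 3 genes of the lists at an unadjusted p under 0.05. DESeq2 called 1 gene of each list lower, C1rl (adjusted p = 0.0315) and Aldh1a7 (adjusted p = 0.00306). Over all 13409 genes tested, 365 had an unadjusted p under 0.05 by edgeR, and DESeq2 called 104 lower.

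**Figure D4:**
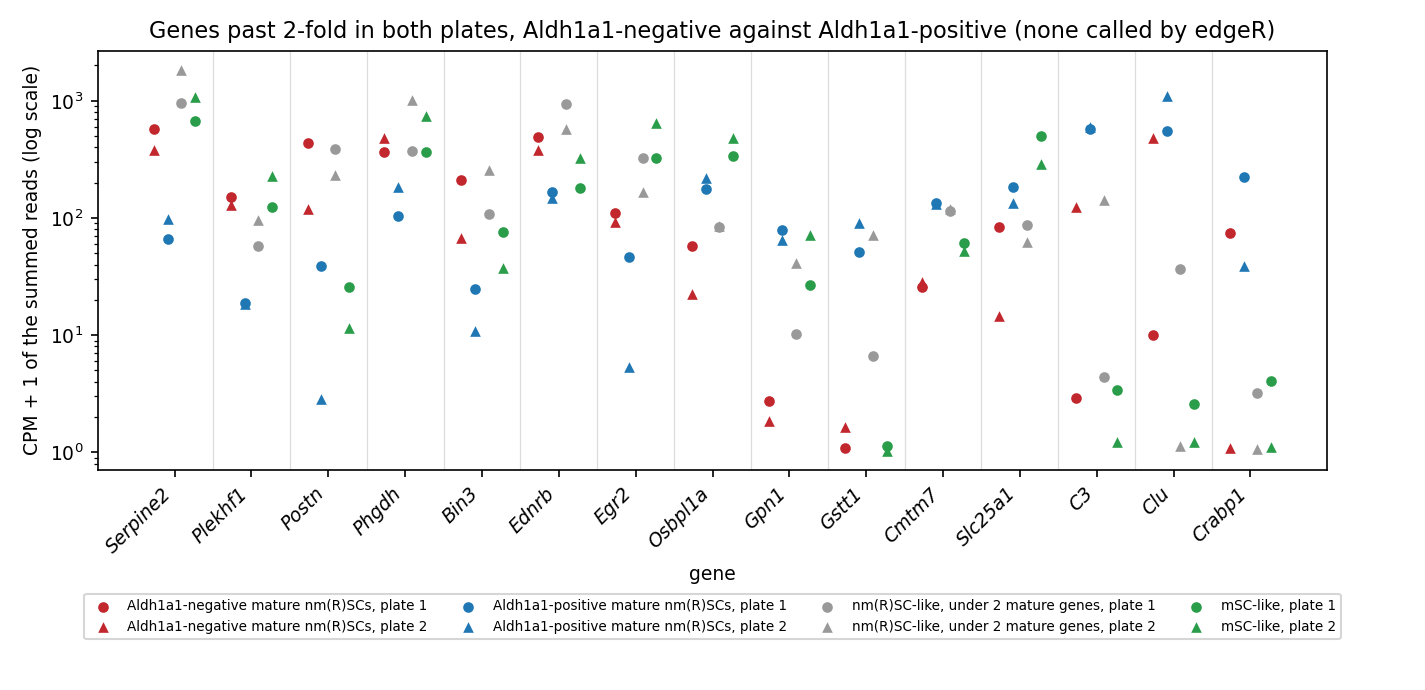
For 15 genes on the horizontal axis, CPM + 1 of the summed reads on a logarithmic vertical axis, with circles for plate 1, triangles for plate 2 and colours for the 4 classes. Serpine2 to Egr2 are higher in Aldh1a1-negative (red) than in Aldh1a1-positive cells (blue) in both plates and Osbpl1a to Crabp1 lower. Of the 15 genes edgeR called 0 and DESeq2 called 9, while DESeq2 called 170 of all 13409 genes tested. The genes were chosen after their values were seen, 5 in each direction by the smallest unadjusted p. The count of 9 is thus raised by this choice and is no test.

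Against the nm(R)SC-like cells with under 2 mature genes, the fit again called no gene (0% of 13409), with 870 at an unadjusted p under 0.05 and a median log2 ratio of 0.17. DESeq2 called 407 genes higher in Aldh1a1-negative cells and 259 lower. As a description, 450 genes (3.36%) were at least 2-fold higher in both plates and 314 (2.34%) at least 2-fold lower. By the same choice after values were seen, Sfrp5, Myl9, Smpdl3a, Rit1 and Prnp led the higher genes and Dclk1, Rasal2, Nrep, Rfxank and Otud7b the lower ones. Sfrp5, a secreted binder of Wnt proteins (chromosome 19, 42197971 to 42202252), stood at 856 and 837 CPM in Aldh1a1-negative cells and 72.0 and 20.6 CPM in cells with under 2 mature genes, with a log2 ratio of 4.39 ± 0.533 (SE, edgeR adjusted p = 0.0854). It was read in 64.9% and 48.9% of the former and 2 of 31 and 3 of 23 of the latter cells, and also in 59.0% and 44.6% of mSC-like cells. Myl9, a light chain of smooth muscle and other myosins, stood at 70.2 and 74.9 CPM against 2.67 and 3.38 CPM (edgeR adjusted p = 0.0854). Smpdl3a, a phosphodiesterase that cleaves nucleotides, stood at 75.1 and 357 CPM against 1.63 and 0.199 CPM (edgeR adjusted p = 0.139), and Prnp, the prion protein, at 2656 and 5057 CPM against 750 and 1297 CPM (edgeR adjusted p = 0.191). The exons of Prnp overlap those of Prn on the same strand. Where 3 of the 4 mature genes were required, the log2 ratio was -0.076 for Myl9 and -0.42 for Smpdl3a. Of the lower genes, Dclk1, a kinase that binds microtubules, stood at 49.3 and 15.6 CPM against 254 and 440 CPM, and its exons overlap those of Gm21954. Without the cell with most reads of the gene in each class and plate, 23 of 23 genes tried in this comparison kept their sign. The log2 ratios with 10 CPM added then went from -2.42 and -1.63 to -0.76 and -0.20 for Rfxank, and in plate 2 from -3.73 to -0.33 for Otud7b.

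Of the 2 label markers outside the rule, Slc43a3 was higher in Aldh1a1-negative cells by a log2 ratio of 2.00 ± 0.363 (SE) and Rarres2 by 0.95 ± 0.330, without a call by edgeR (adjusted p of 0.273 and 0.704), while DESeq2 called Slc43a3 (adjusted p = 0.00555). Of 16 complement genes, Serping1 (468 and 1788 CPM against 174 and 69.6 CPM) and C1s1 (26.4 and 226 CPM against 0.148 and 0 CPM) were past 2-fold higher, against 3.36% of all genes. Without its top cell, C1s1 went from 1.84 to 0.75 on the log2 scale in plate 1, which is under 2-fold. Of 14 adhesion genes 4 were past 2-fold higher, among them Chl1 and L1cam, and of 20 class I genes 3 were, among them H2-K1 (1158 and 1234 CPM against 468 and 461 CPM). Abca8a stood at 1568 and 865 CPM against 492 and 279 CPM. Of 8 neurotrophin and GDNF receptors 2 were past 2-fold higher and 3 lower, against 2.34% of all genes for the latter. Ngfr was among the latter, with 69.6 and 84.8 CPM in Aldh1a1-negative and 251 and 393 CPM in the other cells, and was read in 8 of 37 and 12 of 92 cells against 14 of 31 and 7 of 23. Tnc, the matrix protein tenascin-C, stood at 16.8 and 0.256 CPM against 125 and 129 CPM. Runx2, a transcription factor, stood at 0.276 and 0.0197 CPM against 74.7 and 74.1 CPM but was read in only 2 of 31 and 2 of 23 of the comparison cells. Without the top cell, the log2 ratio of Runx2 in plate 2 went from -3.07 to -0.63, and that of Tnc in plate 1 from -2.34 to -0.99. Of the 12 genes of repair SCs, 3 were past 2-fold lower (Ngfr, Runx2 and Btc) and 1 past 2-fold higher, Gfap, with 49.4 and 54.9 CPM against 12.6 and 0 CPM.

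The Aldh1a1-negative cells varied among themselves. Of genes outside the rule with 2 or more of 20000 reads in 20% to 80% of the cells of each plate, the 15 with the widest spread in both plates were Ccn1, H2-K1, Junb, Id3, Egfl8, Sfrp5, Igfbp7, Capg, G0s2, Ctsl, Cdh19, Cyb5r3, Ier2, Rassf4 and Psma1. Ccn1, Junb and Ier2 are immediate early genes, which cells switch on within minutes of a stimulus, tissue dissociation included. Junb ranged over the cells of plate 1 from 6.64 to 7082 CPM with a median of 826 CPM, and in plate 2 from 0 to 6539 CPM with a median of 11.4 CPM. It had 2 or more thinned reads in 70.3% and 44.6% of Aldh1a1-negative cells and in 74.5% and 80.7% of mSC-like cells. Across cells Junb and Ier2 rose and fell together, with a Spearman's rho of 0.810 over the 37 cells of plate 1 and 0.768 over the 92 cells of plate 2. For Ccn1 and Ier2 it was 0.551 and 0.435. These cells share a plate and its depth, so no p is given. The exons of Junb overlap those of Prdx2, those of Egfl8 overlap Agpat1 and those of Igfbp7 overlap Polr2b, each on the other strand.

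H2-K1 ranged from 0 to 4327 CPM in plate 1 and from 0 to 12218 CPM in plate 2, with medians of 644 and 945 CPM. It was read in 64.9% and 60.9% of the cells, against 34.2% and 21.7% of mSC-like cells. Igfbp7, a secreted binder of insulin-like growth factors, was read in 75.7% and 37.0% against 18.01% and 6.02%, and G0s2, an inhibitor of fat breakdown, in 59.5% and 34.8% against 9.32% and 8.43%. Ctsl, a lysosomal protease, was read in 51.4% and 58.7% of the Aldh1a1-negative cells. Apart from H2-K1, Ctsl and Rassf4, the shares were lower in plate 2 by more than 9 percentage points. No pair among these genes other than those with Junb, Ier2 and Ccn1 had a rho over 0.213 in both plates.

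**Figure D5:**
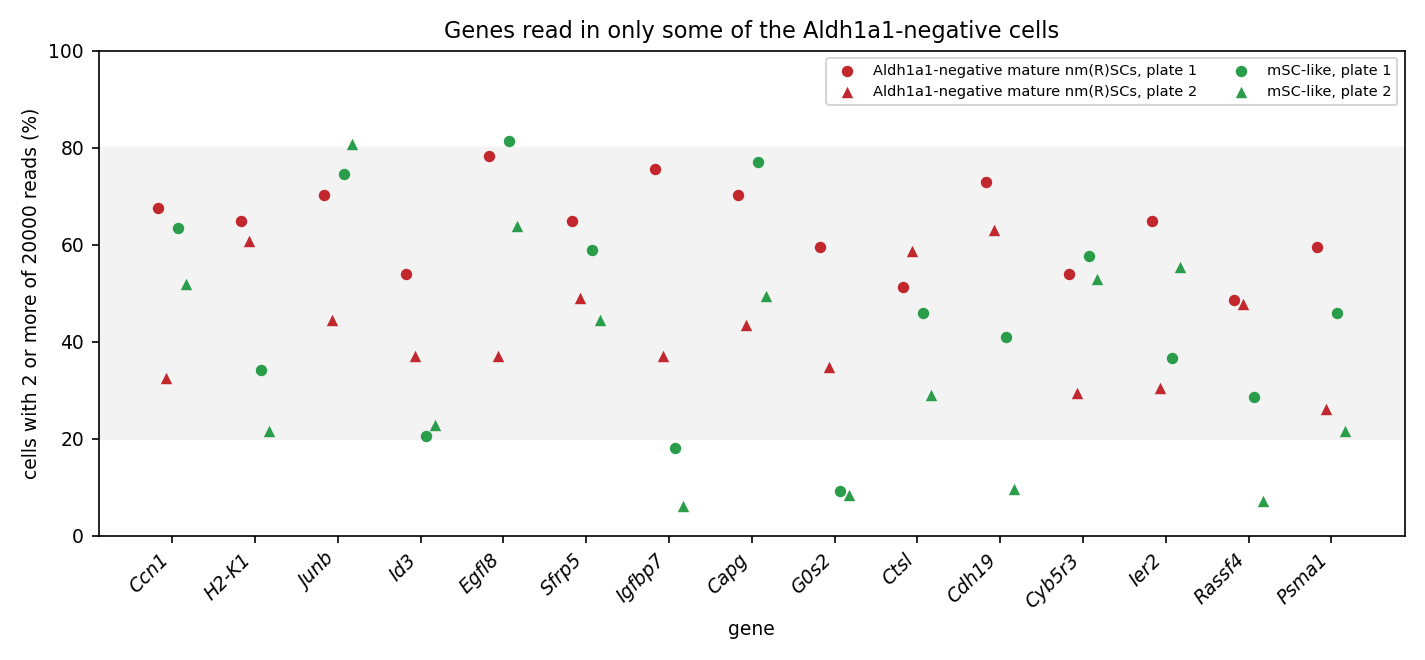
Percentage of cells with 2 or more reads after thinning to 20000 reads (vertical axis) for the 15 most variable genes (horizontal axis), in Aldh1a1-negative cells (red) and mSC-like cells (green), circles for plate 1 and triangles for plate 2. The shaded band marks the 20% to 80% within which the genes were chosen, and most red triangles lie below the red circles.

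Aldh1a1-negative cells with reads of 5 or more listed genes of the cell cycle were few, and all were on plate 1. Such genes were read on plate 2 as well. There, at most 3 of the 14 had 2 or more thinned reads in any Aldh1a1-negative cell. At least 5 of 14 proliferation genes had 2 or more thinned reads in 6 of 37 cells of plate 1 (16.2%, exact 95% interval 6.19% to 32.0%) and in 0 of 92 cells of plate 2, which by the same limit of 3 cells allows a share of up to 3.26%. Against mSC-like cells edgeR called none of the 14 genes (6 at an unadjusted p under 0.05, median log2 ratio 2.35) and DESeq2 called 5 higher. Of all 13409 genes tested, 1183 had an unadjusted p under 0.05 by edgeR, and DESeq2 called 491 higher. The 6 cells held 93.2% of the reads of these genes in their class and plate. In plate 1 the same was seen in 5 of 75 Aldh1a1-positive cells (6.67%), 5 of 31 cells with under 2 mature genes (16.1%) and 2 of 161 mSC-like cells (1.24%, 0.151% to 4.42%), and in plate 2 in no cell of any class. Without these cells, an alternative added after the data were seen, 74 genes were higher and 28 lower against mSC-like cells, 92 of them among the 102 above, and Tm4sf1, Mt3, Sept3 and Nlgn3 were no longer called.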

How the data were processed

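The deposited table holds counts of reads per gene for 768 cells on 2 plates. Per the labels, the authors aligned the reads with STAR 2.6.1c to GRCm38.p5 and counted them per gene with featureCounts. The methods of the study name another STAR version and a human build, and do not state the strand setting. Identifiers of 25700 genes were matched to symbols of GENCODE vM21 on GRCm38, and 25587 had one. Every row had a gene identifier, 0 being without one, and C4a and Aldoa were not matched. Plate totals were 74280540 and 209404659 reads, and the kept cells had between 20714 and 4076083 reads. Cells were sorted 1 per well, no doublet caller was run, and 145 cells were left out for low genes or reads. Intervals are exact (Clopper-Pearson) at 95% and, without molecular identifiers, cover counting error only. The limit for a count of 0 is 3 cells of the total.

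Reads were summed per plate and class, and the 8 sums were fitted with edgeR 4.0.16 (R 4.3.3, TMM, filterByExpr with a minimum count of 10, quasi-likelihood test), with plate and class as terms and the 17 genes of the rule left out. Each plate was a block because all its classes come from the same pooled mice. Benjamini-Hochberg adjustment ran over all genes, with a limit of 0.05. With the plate as a block, p-values measure how far the differences between the 4 classes disagreed between the 2 plates. That spread had 3 residual degrees of freedom, with 7.38 prior degrees of freedom shared across genes. Alternatives were DESeq2 1.42.0, no block, other size factors, filters and limits, and, added after the data were seen, leaving out cells with proliferation genes or the top cell of a gene. For shares of cells, each cell was thinned to 20000 reads. Named genes were the 10 in each direction called at 50 CPM or more in the higher class of both plates, with the largest of the smaller plate ratios, and genes of the lists. Counts for the list of compact myelin genes are not reported here. Variable genes were chosen by the smaller SD of the 2 plates among 870 candidates. The cells and gene lists were chosen with earlier results of these data known. Python 3.11.15 with pandas 2.3.3 and scipy 1.17.1 was used.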

Additional observations from a re-analysis of the deposited data

Results flagged for a closer look

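The filters on genes and reads left out 6 cells that met the rest of the rule, 1 of the 80 left out of plate 1 and 5 of the 65 left out of plate 2. They came to attention as cells outside every comparison. The 1 cell of plate 1 had 5338 reads and the 5 of plate 2 a median of 19411 reads.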

How the results depend on the processing

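Against mSC-like cells, 102 genes were called. Without the plate block the count was 20, all among the 102, and 10 of the 20 named genes kept their call (not Apoe, Gpnmb, L1cam, Tm4sf1, Slc36a2, Mfap5, Emid1, Mt3, Sept3 or Abcg1). The block changed no count in the other comparisons. The count was 986 with DESeq2, 155 with only the 2 classes in the fit (78 shared), 235 with cells thinned to 20000 reads (99 shared), 215 with 3 of 4 mature genes (97 shared) and 38 with 2500 or more genes per cell (33 shared). The other 8 alternatives gave 87 to 147. Against Aldh1a1-positive cells, DESeq2 called 170 genes and every other alternative 0. Against cells with under 2 mature genes, where none was called, DESeq2 called 666, the fit without a filter 1 (Sfrp5), thinned cells 6 (Angpt2, S1pr3, Sfrp5, Slc43a3, Smpdl3a and Tmem176a), members without an Aldh1a1 read 2 (Pmp22 and Smpdl3a), 3 of 4 mature genes 2 (Mlec and Sfrp5) and the rule on thinned cells 1 (Cxcl1). In that comparison the log2 ratio turned to -0.076 for Myl9 and -0.42 for Smpdl3a with 3 of 4 mature genes, and to 0.12 for Rfxank with 2500 genes. The cause was not tested. The mean share of 20.5% ranged from 11.9% to 21.8% over the rules, and was 12.2% and 28.8% in the single plates. With 1 plate left out no count of calls could be made, as no residual degrees of freedom remain. Genes near 0 and the 37 cells of plate 1 limit what these depths can show.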

Other observations

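Between the plates, Aldh1a1-negative cells differed most in the following genes, chosen by the size of the ratio and given without a test, as the plate and its animals cannot be told apart. Higher in plate 1 were the mitochondrial mt-Atp6 (365 CPM against 0.375 CPM in plate 2) and the cell cycle genes Pbk (317 against 0.395 CPM), Cdk1 (298 against 0.927 CPM), Top2a (251 against 0.710 CPM) and Cks2 (311 against 3.47 CPM). In mSC-like cells the log2 ratio of plate 2 over plate 1 was -4.75 for mt-Atp6. Higher in plate 2 were Isyna1 (459 against 0.184 CPM), Clu (479 against 9.03 CPM), Sergef (183 against 0.369 CPM), Fam219b (146 against 0.369 CPM) and Hs1bp3 (146 against 0.369 CPM). One cell held 80.1% of the Cks2 reads of plate 1, and for Sergef and Isyna1 it held 51.8% and 47.6% of the reads of plate 2.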
